A study of Homo sapiens with 12 samples.

Results

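Control libraries labelled PC9 were compared with the control libraries of HCC827 and H1975, to show which genes set the first line apart from both others before any effect of ZNF263. All 3 are established human lines of non-small-cell lung cancer and are labelled as tumour tissue. The comparison used 6 of the 12 libraries of the series, 2 for each line. The other 6 come from the same lines with a vector that overexpresses ZNF263, a zinc finger transcription factor, and served only to see whether a difference recurred. Each group is one line with a control vector, grown in DMEM and exposed to osimertinib, an EGFR inhibitor, in rising steps. The titles add OR to the line names without saying what it stands for. Each line stands for itself only. PC9 is usually described as an epithelial line, and the near absence of EPCAM and KRT19 from the libraries labelled PC9 goes against that description, so each value given for PC9 holds only for the cells in these libraries. The labels do not say whether the libraries of a group came from separate cultures, so a p-value here reflects the variation from library to library, which can be purely technical.

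Lung adenocarcinoma lines usually keep an epithelial programme, in which EPCAM, cadherins and claudins hold cells together and keratins form the inner scaffold. NRF2 is a transcription factor that switches on detoxifying and antioxidant enzymes, among them the aldo-keto reductases, and is held low by KEAP1 in unstressed cells. Interferon signalling ends at genes that block viruses and at the HLA class I machinery, which shows peptides to T cells. CDKN2A and CDKN2B encode inhibitors of the cyclin-dependent kinases that inactivate RB, and are often lost together in tumours.

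Values are FPKM, fragments scaled by gene length and by the size of the library. Of 20003 usable entries, 15906 were filled in all 6 columns, and 11895 of these reached 1 FPKM in at least 2 libraries and were tested. Differences are on the log2(FPKM + 1) scale, which understates the change of low genes. Read numbers were recovered from the steps between values: for the gene of median length 1 FPKM stood for 76.28 and 80.28 reads in the libraries labelled PC9, 67.86 and 64.75 for HCC827, and 129.5 and 119.8 for H1975. They also gave relative gene lengths. These were equal (within 0.002 on the log2 scale) for 85.4% of tested genes between HCC827 and H1975, but for 10.2% and 10.6% between PC9 and those lines. Within 0.1 on the log2 scale the shares were 85.4%, 56.6% and 56.8% in the same order. The columns labelled PC9 were therefore made with other gene lengths. Whether these came from other gene models or from another estimate of length was not tested. A difference between lines and a difference in how the columns were made cannot be told apart, and the p-values do not separate them. For this reason the account leads with genes that were present in one line and nearly absent from others.

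The libraries labelled PC9 were higher than each other line in 3108 of 11895 genes (26.1%) and lower in 3903 (32.8%), where a gene was called if limma gave an adjusted p under 0.05 against both lines in the same direction. The median absolute difference was 0.666 from HCC827 and 0.694 from H1975, and it was 0.514 between HCC827 and H1975. Between the 2 libraries of a line it was 0.0558, 0.119 and 0.0664 for PC9, HCC827 and H1975. Each pair of lines differed in most genes, with 83.1% called between PC9 and HCC827, 83.2% between PC9 and H1975 and 77.8% between HCC827 and H1975. Without a test, both libraries labelled PC9 lay above the other 4 in 3561 genes (29.9%) and below them in 4403 (37.0%). The median difference of all genes was -0.112, and median-of-ratios scaling moved it to -0.0342 and quantile normalization to 0.0313. The direction of modest differences is read against that shift. Counts of called list members below stand beside these 26.1% and 32.8% of all tested genes. A gene could pass the filter through the 2 libraries of a single line, so the tested members of a list can lean towards that line. A gap of at least 2 on the log2 scale left 267 genes higher (2.24%) and 345 lower (2.90%).

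Genes at 5 FPKM or more in both libraries of one line and under 0.5 FPKM in all 4 of the others were taken as on in that line, and the opposite pattern as off. In this sense 74 genes were on only in the libraries labelled PC9 (0.622% of those tested) and 112 were off only there (0.942%). The same thresholds gave 41 on and 16 off for HCC827 (0.345% and 0.135%), and 40 on and 21 off for H1975 (0.336% and 0.177%). These counts share libraries, and their difference was not tested. All 186 genes of PC9 passed the limma call, which the thresholds nearly ensure. With ZNF263 overexpressed, 59 of the 74 and 73 of the 112 still met both thresholds in all 6 libraries. Most of the loss among the off genes was on the side of H1975, where 80 of 112 stayed at 5 FPKM or more, against 111 in HCC827.

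**Figure D1:**
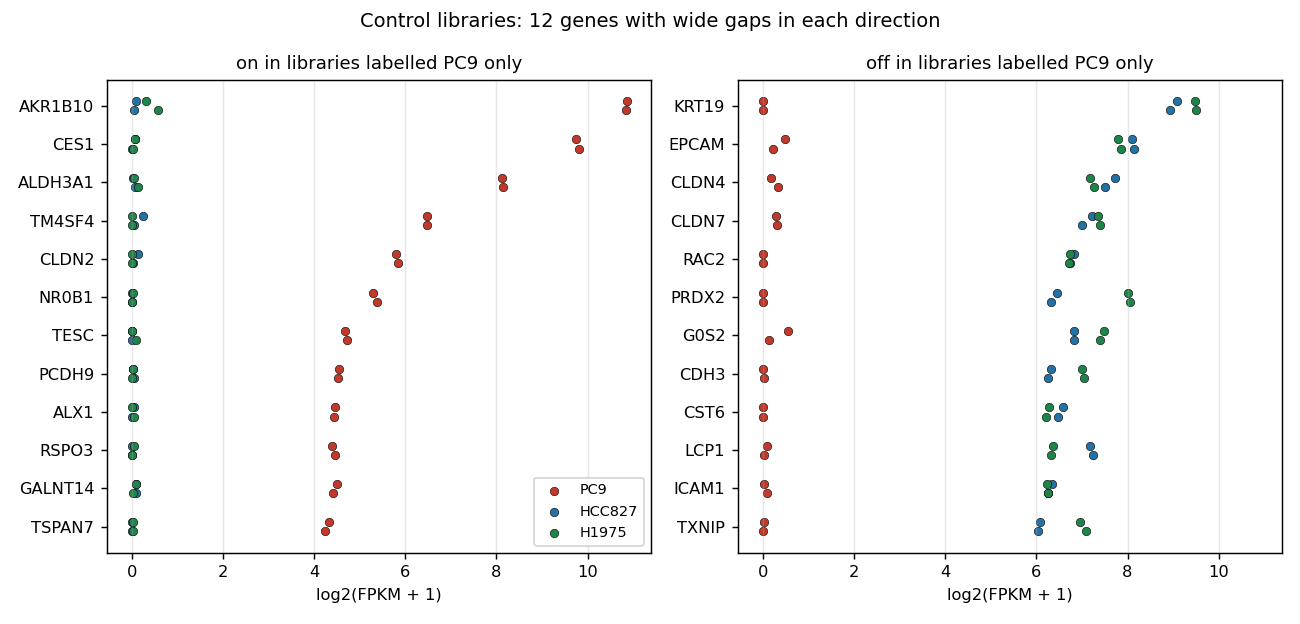
Level of 12 on genes and 12 off genes with wide gaps, as log2(FPKM + 1) on the horizontal axis, with 1 point per control library and 1 colour per line. In the left and right panels the points labelled PC9 stand clear of the other 4, for example AKR1B10 at 1850 and 1840 FPKM and KRT19 at 0 in both.

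**Figure D2:**
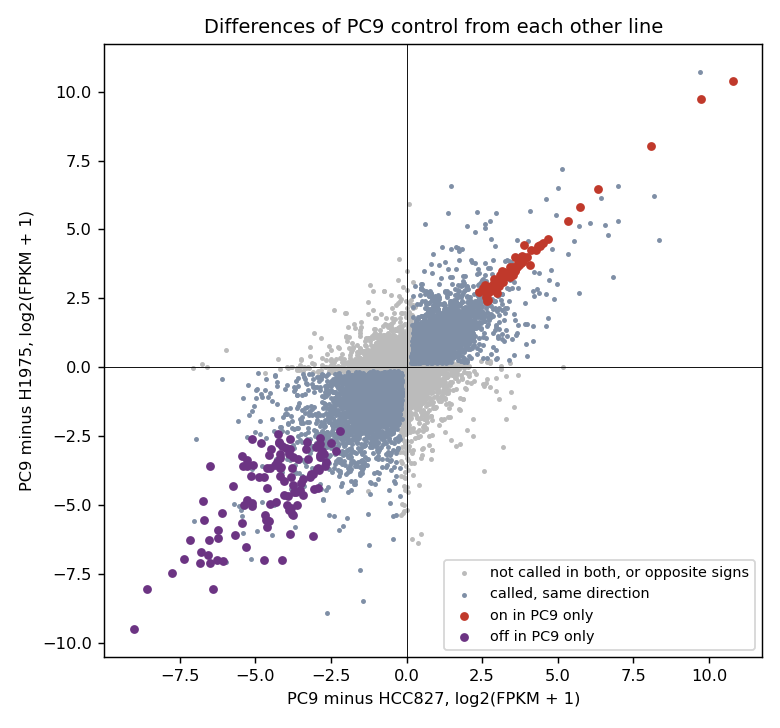
Each point is 1 of 11895 tested genes, with the difference of PC9 from HCC827 on the horizontal axis and from H1975 on the vertical axis, both on the log2(FPKM + 1) scale. The 74 on genes lie in the upper right corner and the 112 off genes in the lower left.

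Among the genes with the highest levels relative to both lines were enzymes that reduce or oxidise aldehydes and break down drugs. AKR1B10, an aldo-keto reductase (GRCh38 chromosome 7, 134527592 to 134541408, plus strand), stood at 1850 and 1840 FPKM, against 0.0629 and 0.044 in HCC827 and 0.252 and 0.498 in H1975. The difference from the mean of both lines was 10.6 ± 0.077 (SE; limma adjusted p = 1.26e-13 against HCC827 and 1.5e-13 against H1975). CES1, a carboxylesterase of liver, was at 862 and 898 FPKM and at most 0.0569 in the 4 other libraries. ALDH3A1, an aldehyde dehydrogenase, was at 279 and 281 FPKM, against 0.0186 and 0.0586 in HCC827 and 0.0293 and 0.105 in H1975. ALDH1A1, which makes retinoic acid and was not on by the thresholds, was at 1930 and 1890 FPKM, against 1.06 and 1.55 in HCC827 and 0.152 and 0.12 in H1975. For none of these genes did the groups come near to overlapping.

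Of 24 tested targets of NRF2 and aldo-keto reductases, 19 were called higher, none lower and 5 in neither direction. For 14 of the 19 the gap was 2 or more in log2 units. The median difference was 2.83, beside -0.112 over all tested genes. AKR1C3, which reduces steroids, was at 689 and 668 FPKM, 4.8 and 3.89 in HCC827 and 6.08 and 6.03 in H1975. AKR1C2 was at 466 and 462, 0.629 and 0.615, and 4.63 and 6.03 FPKM in the same order, and AKR1C1 at 255 and 241, 1.61 and 1.69, and 6.14 and 5.82. These paralogs are nearly identical in sequence, so reads may have been divided among them. GPX2, a glutathione peroxidase, was at 149 and 161 FPKM, against 1.02 and 0.63 in HCC827 and 1.41 and 1.02 in H1975.

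The pathway's common reporters were higher as well. NQO1, a quinone reductase, was at 662 and 655 FPKM in the libraries labelled PC9, 27.6 and 24.7 for HCC827 and 105 and 101 in H1975, a difference of 3.63 ± 0.0558. SLC7A11, the cystine importer, was at 64.2 and 62.5 FPKM, against 5.92 and 7.53 and against 5.95 and 5.93. The level of TXNRD1, thioredoxin reductase, differed less, by 1.44 ± 0.0485. Members outside the call were CBR1, CBR3, GCLC, HMOX1 and AKR1B1. GCLC, part of the enzyme that starts glutathione synthesis, was at 35.2 and 37.6 FPKM beside 32.9 and 35.9 in HCC827 (limma adjusted p = 0.318). HMOX1, which degrades haem, was at 16.7 and 17.4 FPKM, between 12.5 and 11.1 in HCC827 and 146 and 135 in H1975.

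The antioxidant response element bound by NRF2 was searched as TGACNNNGC on both strands of the 250 bases before each gene's start, in RefSeq promoters of GRCh38.p14. Its first letters are shared with AP-1 sites. It was present for 6 of 18 matched NRF2 targets (33.3%), beside 12.1% of 9634 matched tested genes and 11.0% of all 27305 promoters. Among the 51 matched on genes it was present for 5 (9.80%), a lower share than in the tested genes. The windows of AKR1C2 and AKR1C3 were searched too and held no match. GPX2 is shown as an example with 1 match, which is in capitals, reads on the opposite strand and begins 122 bases before the start (chr14:64942746-64942995, minus strand).
GPX2: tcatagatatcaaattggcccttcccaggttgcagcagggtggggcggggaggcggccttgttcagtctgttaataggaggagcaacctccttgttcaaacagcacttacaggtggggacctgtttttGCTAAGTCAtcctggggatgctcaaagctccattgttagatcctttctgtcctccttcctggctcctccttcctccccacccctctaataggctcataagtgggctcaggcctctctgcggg
A match is a description of letters and not a binding site.

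Among 23 tested aldehyde dehydrogenases and drug-metabolising enzymes, 11 were called higher, 7 lower and 5 in neither direction, with a median of 1.01. ALDH2, the mitochondrial enzyme, was at 116 and 111 FPKM, against 3.71 and 3.74 in HCC827 and 0.594 and 0.711 in H1975. CYP24A1, which inactivates vitamin D, was at 529 and 520, 8.57 and 9.81, and 14.2 and 14 FPKM. UGT2B7, a glucuronosyltransferase, and the cytochromes CYP4F3 and CYP4F11 were on only in the libraries labelled PC9, although each has close paralogs. ALDH1A3 ran the other way, at 4.23 and 4.83 FPKM against 183 and 192 in HCC827 and 70.9 and 69.5 in H1975. So the list held strong differences in both directions.

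Some export pumps were higher as well. Of 11 tested ABC transporters, 6 were called higher and 2 lower, with a median of 1.29. ABCC2, which exports glutathione conjugates and bilirubin, was at 118 and 116 FPKM, 2.59 and 2.77 in HCC827 and 0.258 and 0.331 in H1975. ABCC1, a related pump, was at 118 and 113, 16.8 and 16.3, and 13.2 and 14 FPKM. ABCB1, the P-glycoprotein of drug resistance, was low everywhere, at 2.5 and 2.47 FPKM and at most 0.491 in the other 4 libraries.

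Some liver and gut genes were also higher in the libraries labelled PC9, and 2 of the list, TM4SF4 and FGB, were on only there. The list has 24 members, of which 14 had values in all 6 control columns and 6 were tested. Of these 6, 5 were called higher and 1 lower, and the median was 2.84. TM4SF4, FGB and ANXA13 passed the filter only through the libraries labelled PC9, so their direction was fixed by the filter. ANXA13 was at 1.89 and 1.32 FPKM and at most 0.0368 in the other lines. The count is no measure of the whole list. TM4SF4, a tetraspanin-like protein of liver and intestine, was at 88.1 and 88.4 FPKM, 0.186 and 0.0389 in HCC827 and 0 in both H1975 libraries. FGB, the fibrinogen beta chain, was at 12.6 and 12.1 FPKM and at most 0.0316 elsewhere. CPS1, the first enzyme of the urea cycle, was at 30.4 and 29.5, 0.101 and 0.183, and 1.56 and 1.76 FPKM. APOH, a plasma apolipoprotein, was on by the same thresholds. SERPINA1, the antitrypsin of liver, was the member called lower, by 2.88 on the log2 scale.

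Several on genes act in signalling from the cell surface. CLDN2, a claudin that forms cation pores in leaky epithelia, was at 54.6 and 56.4 FPKM and at most 0.0974 in the other lines, a difference of 5.78 ± 0.0714. RSPO3, which amplifies WNT signals, was at 20.1 and 20.9 FPKM, 0 in both HCC827 libraries, and 0.0386 and 0.0104 in H1975. AXIN2, a feedback inhibitor and common reporter of WNT signalling, was at 5.72 and 5.32 FPKM and at most 0.227 elsewhere. SFRP1, a secreted WNT antagonist, was at 5.35 and 5.84 FPKM and at most 0.149. The receptor FZD8 was on too, at 11.2 and 11.0 FPKM. Of 13 tested WNT genes, 6 were called higher (46.2%, beside 26.1% of all tested genes) and 1 lower (7.69%, beside 32.8%). SMO and GLI2, the transducer and a transcription factor of the hedgehog pathway, were at 11.1 and 11.5 and at 7.17 and 7.51 FPKM, and at most 0.102 in the other lines.

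Nuclear receptors were also among the on genes. NR0B1, an orphan receptor, was at 38.2 and 40.6 FPKM, and 0.016 was its highest level in the other lines. RARB, a retinoic acid receptor, was at 14 and 14.4 FPKM, with 0.0612 and 0.0802 in HCC827 and 0.032 and 0.0346 in H1975. PCDH9, TSPAN7, ALX1, TESC and GALNT14 complete the 12 widest gaps among on genes, all between 17.9 and 25.2 FPKM. CD99, which encodes a surface glycoprotein, was the only on gene listed at 0 in all 8 libraries of the other lines. It lies in a region shared by X and Y, where reads can be lost if both copies are in the reference.

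On the other side, several genes of the epithelial surface were off in the libraries labelled PC9, 11 of 29 tested in the list of junctions and polarity. EPCAM, the adhesion molecule used to define carcinoma cells (GRCh38 chromosome 2, 47345158 to 47387601, plus strand), was at 0.414 and 0.168 FPKM, against 271 and 281 in HCC827 and 220 and 230 in H1975. In recovered reads that is 14 and 6 against 7562 and 7487 and against 11735 and 11334, up to one multiplier per gene and line. The difference was -7.6 ± 0.0742 (limma adjusted p = 4.82e-13 against HCC827 and 7.4e-13 against H1975). KRT19, an epithelial keratin (chromosome 17, 41523617 to 41528308, minus strand), was at 0 in both libraries, 539 and 484 FPKM in HCC827 and 709 and 728 in H1975.

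Of 29 tested genes of junctions and polarity, 26 were called lower and 3 higher, and 17 of the 26 by at least 2. The median was -2.62. CLDN4 and CLDN7, claudins that seal tight junctions, were at 0.139 and 0.263 and at 0.224 and 0.236 FPKM, against at least 144 and 128 in the other lines. CDH3, P-cadherin, was at 0 and 0.0219 FPKM, 79.3 and 75.0 in HCC827 and 127 and 131 in H1975. ESRP1, which sets epithelial splicing, was listed at 0 in both, against 65.1 and 70.9 and against 37.0 and 38.8. ST14, a membrane protease, was at 0 and 0.0146 FPKM, 108 and 99.8 in HCC827 and 45.3 and 46.1 in H1975, and its inhibitor SPINT1 at 0.0582 and 0.0184 against at least 61.4. Other members were present. E-cadherin, CDH1, was at 8.05 and 7.97 FPKM, 126 and 135, and 64.0 and 69.1. Higher in PC9 were CLDN2, CLDN1 (34.5 and 37.6 FPKM) and the scaffold TJP1 (56.6 and 58.2).

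Keratins split. KRT8 and KRT18 of simple epithelia were abundant in every line, at 1050 and 1040 and at 1200 and 1230 FPKM in the libraries labelled PC9. Their differences from the mean of the others were 0.715 and 0.802. KRT19, also a keratin of simple epithelia, was at 0 in both libraries labelled PC9. KRT81, a hair keratin, was at 522 and 521 FPKM, 0.517 and 0.692 in HCC827 and 20.4 and 19.9 in H1975. KRT7 was lower, at 527 in both against 1250 and 1090 and against 1810 and 1760. KRT15 and the basal marker S100A2 were lower too. Of 11 tested squamous and basal genes 6 were called lower (54.5%, beside 32.8% of all tested genes) and none higher (beside 26.1%). KRT15, KRT17, IVL, SPRR1B and TRIM29 passed the filter only through the other lines, so the filter itself favoured that direction. TP63 of the same list was not called, at 10.8 and 9.98 FPKM, 1.95 and 1.72 in HCC827 and 15.3 and 15.9 in H1975. KRT8, KRT18 and KRT7 were thus present in the libraries labelled PC9, while EPCAM and KRT19 were nearly absent. The near absence of EPCAM and KRT19 goes against PC9 as usually described, and these keratins do not show which carcinoma the cells are. The files hold no genotype, and the identity of the line was not tested.

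LAMB3, a laminin chain of the basement membrane, was at 4.24 and 3.48 FPKM where labelled PC9, 157 and 143 for HCC827, and 304 and 290 for H1975. Among 22 tested integrins and laminins, 12 were called lower (54.5%, beside 32.8% of all tested genes) and 6 higher (27.3%, beside 26.1%), the latter including LAMB1 and ITGB1, with a median of -0.927.

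Mesenchymal genes lay on both sides. Of 24 tested, 8 were called higher (33.3%), 6 lower (25.0%) and 10 in neither direction, near the 26.1% and 32.8% of all tested genes, with a median of -0.0542. S100A4, a calcium-binding protein of motile cells, was at 568 and 566 FPKM, 17.9 and 12.6 in HCC827 and 2.89 and 2.84 in H1975. CDH2, N-cadherin, was at 28.8 and 29.2, 5.24 and 5.14, and 0 and 0.00684 FPKM. ZEB1, a repressor of epithelial genes, was at 5.2 and 5.95 FPKM, 0.878 and 1.1 in HCC827 and 1.25 and 1.33 in H1975. VIM, the mesenchymal filament, lay between the others, at 594 and 579 against 140 and 142 in HCC827 and 691 and 665 in H1975. SNAI2, another such repressor, was lower at 1.23 and 1.48 FPKM against at least 9.15. SPARC, a matrix protein, was lower as well, at 0.863 and 0.806 against at least 19.8.

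The interferon group was mostly lower. Of 25 tested genes 22 were called lower and none higher, and the median was -2.69. IFITM3, which blocks viral entry, was at 1.06 and 0.794 FPKM in the libraries labelled PC9, 136 and 105 for HCC827 and 237 and 272 in H1975. IFITM1 was at 0.142 and 0, 49.3 and 35.4, and 84.0 and 115 FPKM. These neighbours are close in sequence and may share reads. ISG15, a ubiquitin-like modifier, was at 2.13 and 1.66, 148 and 97.6, and 169 and 204 FPKM, a difference of -5.7. IFI6 was at 0.784 and 0.745, 83.6 and 44.4, and 198 and 243 FPKM. IRF7, the factor that amplifies the response, was at 0.0712 and 0.338 FPKM against at least 13.3. Outside the call were IFITM2, ISG20 and 1 other member.

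The interferon-stimulated response element was searched as GAAA, any 2 bases and GAAA again, on both strands of the same windows. It was present for 12 of 17 matched interferon genes (70.6%), for 6 of 12 of the HLA class I list (50%) and for 11 of 68 matched off genes (16.2%), beside 2.27% of the tested genes and 3.07% of all promoters. The lists were drawn up from genes known to answer interferon. Shown are 3 genes of this group with wide gaps, with matches in capitals; overlapping matches run together in ISG15. Positions are chr11:320861-321110 on the minus strand for IFITM3, and on the plus strand chr11:313790-314039 for IFITM1 and chr1:1013247-1013496 for ISG15.
IFITM3: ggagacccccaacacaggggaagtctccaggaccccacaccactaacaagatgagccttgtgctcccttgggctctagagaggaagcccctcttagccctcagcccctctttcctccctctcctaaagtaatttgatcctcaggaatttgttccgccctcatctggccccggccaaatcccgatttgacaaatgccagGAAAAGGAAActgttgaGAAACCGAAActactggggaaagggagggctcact
IFITM1: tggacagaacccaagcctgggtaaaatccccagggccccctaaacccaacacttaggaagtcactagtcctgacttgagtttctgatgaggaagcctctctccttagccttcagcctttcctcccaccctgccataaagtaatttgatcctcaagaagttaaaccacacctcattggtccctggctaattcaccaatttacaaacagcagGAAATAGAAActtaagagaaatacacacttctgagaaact
ISG15: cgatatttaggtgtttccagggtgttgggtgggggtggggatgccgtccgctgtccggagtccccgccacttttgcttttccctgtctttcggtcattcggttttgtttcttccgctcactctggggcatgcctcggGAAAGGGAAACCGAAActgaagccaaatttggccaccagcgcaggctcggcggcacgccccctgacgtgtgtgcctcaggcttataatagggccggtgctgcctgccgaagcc
Matches were 2 in IFITM3, 1 in IFITM1 and 2 in ISG15.

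HLA class I presentation was lower in 15 of 15 tested genes, with a median of -2.84. HLA-B was at 1.35 and 1.29 FPKM, 52.4 and 46.0 in HCC827 and 151 and 159 in H1975. HLA genes are similar to each other and vary between people, so reads may be lost or exchanged. B2M, the invariant chain and no member of that family, was at 34.8 and 35.2 FPKM, 398 and 404 in HCC827 and 813 and 845 in H1975. PSMB8, a subunit of the immunoproteasome, was at 0.2 and 0.136 FPKM, 51.1 and 43.3, and 35.6 and 36.6, and its neighbour PSMB9 was off too. TAP1, a peptide transporter, was at 4.12 and 3.47 FPKM against at least 9.55. CD274, the checkpoint ligand PD-L1, was off, at 0.16 and 0.178 FPKM against 7.24 and 8.56 in HCC827 and 14.1 and 13.1 in H1975.

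**Figure D3:**
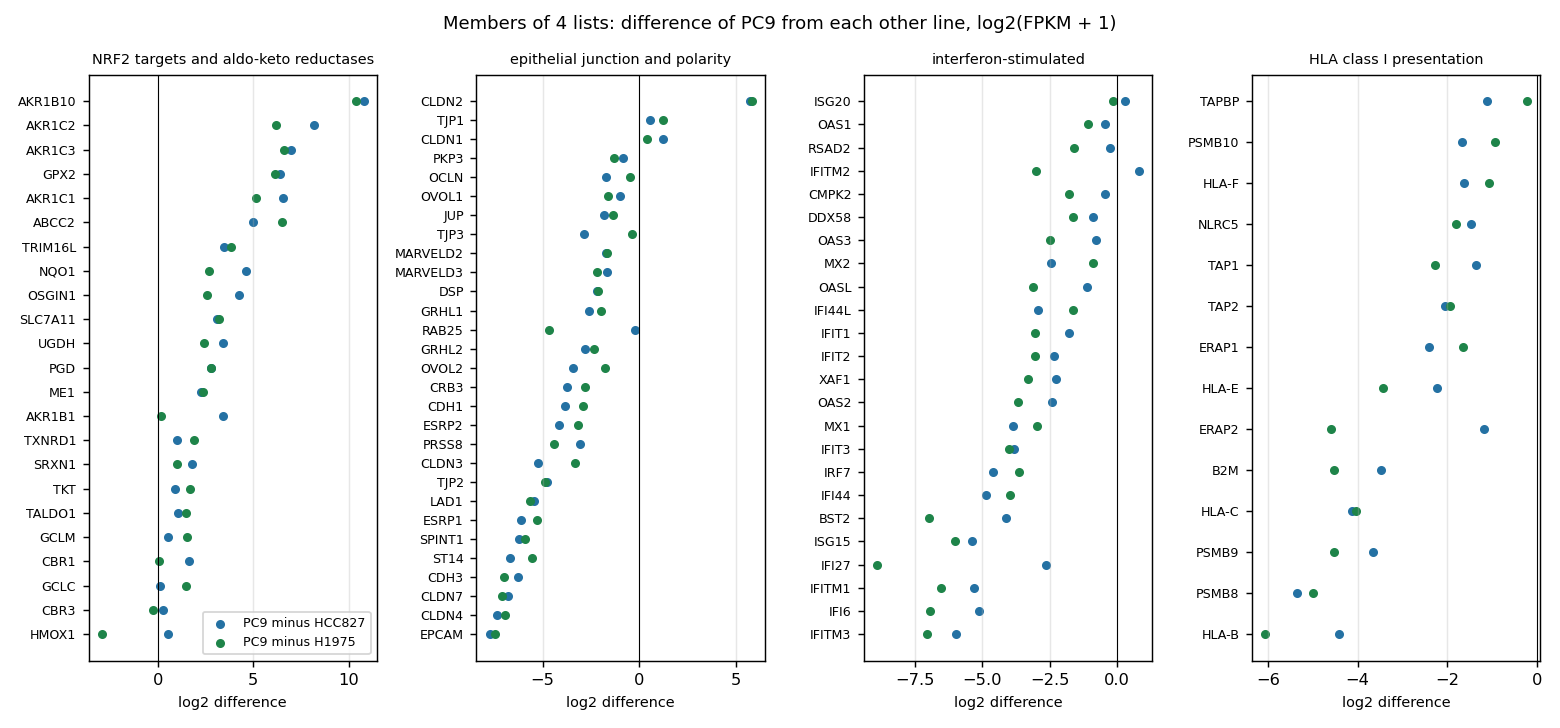
Difference of PC9 from HCC827 and from H1975 on the log2(FPKM + 1) scale, with 1 point per line and gene, for tested members of 4 lists. Most NRF2 targets lie to the right of 0, and most junction, interferon and HLA class I genes to the left, with CLDN2 at 5.78 from the mean of both lines as an exception.

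CDKN2A and CDKN2B were listed at 0 in the libraries labelled PC9, and an exact 0 can be a failed estimate. CDKN2A (chromosome 9, 21967753 to 21995301, minus strand) was at 0 in both, 92.1 and 85.1 FPKM in HCC827 and 11.4 and 10.6 in H1975, a difference of -5.04 ± 0.0682 (limma adjusted p = 7.33e-13 and 3.9e-11). CDKN2B (22002903 to 22009363) was at 0 in both, 15.7 and 18.0 and 10.2 and 12.5 FPKM. MTAP, the next gene on one side and an enzyme of methionine salvage, was at 4.79 and 4.4 FPKM, 20.7 and 23.5 in HCC827 and 12.6 and 12.1 in H1975. DMRTA1, the next on the other side, was at 1.41 and 1.13 FPKM, 0.684 and 0.53, and 1.2 and 1.03. The listed zeros thus covered CDKN2A and CDKN2B and neither neighbour. MTAP was itself called lower, with a difference of -1.65 ± 0.072, and DMRTA1 was not called. Whether the DNA is missing was not tested.

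**Figure D4:**
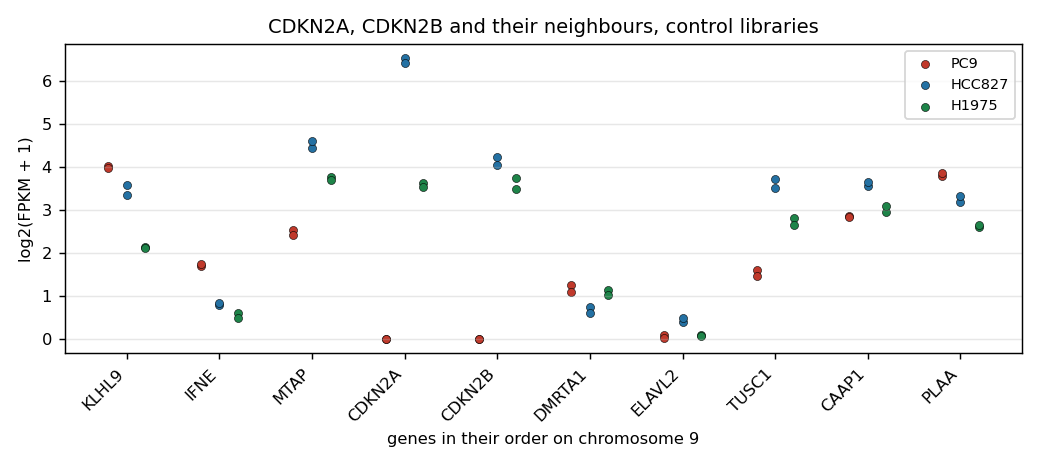
Level of CDKN2A, CDKN2B and neighbouring genes in their order on chromosome 9, as log2(FPKM + 1), with 1 point per control library. In the libraries labelled PC9 both are at 0, while MTAP at 4.79 and 4.4 FPKM and DMRTA1 at 1.41 and 1.13 are not.

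In the wider RB and p53 pathway 8 of 21 tested genes were called higher and 8 lower (38.1% each, beside 26.1% and 32.8% of all tested genes). MDM2, which degrades p53, was at 31.4 and 29.5 FPKM, 5.24 and 5.54 in HCC827 and 10.3 and 11.0 in H1975. CCND3, a D-type cyclin, was at 58.2 in both, 14.7 and 11.9, and 20.5 and 17.7 FPKM. CDK4, its kinase partner, was at 90.5 and 87.4 FPKM, and the difference of -2.41 came mostly from HCC827 at 1870 and 1620, with H1975 at 133 and 128.

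Among 11 tested ERBB receptors and ligands, 6 were called lower and 1 higher, with a median of -1.17. EGFR, the target of osimertinib, was at 42.1 and 42.9 FPKM, 442 and 470 in HCC827 and 54.3 and 54.9 in H1975. Its difference from H1975 was small beside that from HCC827 (limma adjusted p = 0.000185 and 7.68e-12), and the call against both lines was lost under quantile normalization. ERBB2 was at 17.7 and 17.4 FPKM and not called, and ERBB3 was lower by 1.02. Of the ligands, HBEGF was at 0.904 and 0.859 FPKM against at least 7.59, AREG at 11.7 and 12.5 against at least 28.0, and NRG1 was higher, at 14.8 and 14.9 against at most 4.57.

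Of 24 other receptor tyrosine kinases and ligands tested, 9 were called higher (37.5%) and 8 lower (33.3%), beside 26.1% and 32.8% of all tested genes. FGFR1 was at 32.1 and 30.2 FPKM, 0.195 and 0.244 in HCC827 and 2.8 and 2.4 in H1975. FGFR4 was at 48.2 and 44.4, 6.67 and 6.11, and 3.15 and 2.64 FPKM. AXL, often discussed in resistance to EGFR inhibitors, was at 63.0 and 63.8, 1.66 and 1.38, and 18.2 and 17.2 FPKM. IGF1R was at 45.3 and 45.5 FPKM, against at most 9.66.

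Lung lineage genes were highest in HCC827 for the 3 described first. NKX2-1, the lung lineage factor, was at 0.0809 and 0.0384 FPKM, 134 and 130 in HCC827 and 4.7 and 6.09 in H1975, and was called lower. NAPSA, the alveolar protease, was at 0.293 and 0.329 FPKM beside 0.0759 and 0.349 in H1975, and was not called. SFTPB was at 0 in both lines. AGR2, a secretory cell disulfide isomerase, was higher at 77.7 and 81.3 FPKM against at most 7.64. Of 12 tested airway and mucin genes, 4 were called higher (33.3%) and 5 lower (41.7%), beside 26.1% and 32.8% of all tested genes. Of 9 alveolar ones 3 were called lower (33.3%) and none higher. MUC5AC, MUC5B and SPDEF passed the filter only through the libraries labelled PC9. MUC1, MUC16, LCN2, WFDC2, LAMP3 and NKX2-1 passed it only through the other lines. The filter itself thus favoured the direction of these calls. UCHL1, a neuronal and endocrine hydrolase, was at 319 and 315 FPKM, against at most 8.38. Of 24 neuroendocrine and neural genes, 14 had values in all 6 control columns and 7 were tested, with 5 called higher and 1 lower. CHGB, SYP, NCAM1, SCG2, SCG3, STMN2 and ELAVL3 were below the filter. The count therefore does not describe the whole list.

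**Figure D5:**
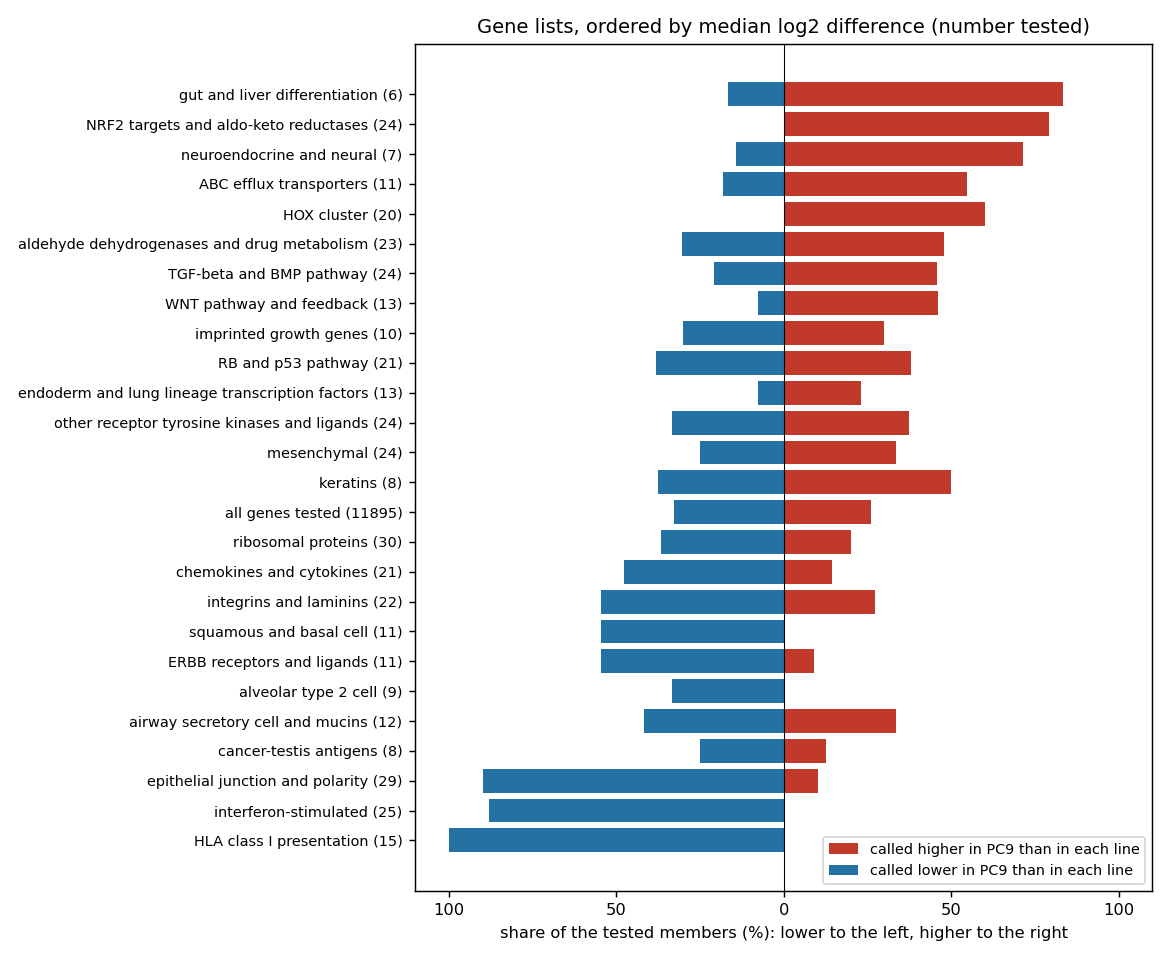
Share of tested members called higher (right) or lower (left) in PC9 than in each other line, in percent, for each gene list, with the number tested in parentheses and lists ordered by median difference. HLA class I presentation reaches 100% on the lower side with 15 of 15, and ribosomal proteins split into 6 higher and 11 lower of 30.

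Of 30 tested ribosomal proteins, which every cell makes at high level, 6 were called higher (20%) and 11 lower (36.7%), near the 26.1% and 32.8% of all tested genes. Single members differed by as much as 1.89 (RPL23) and -1.71 (RPL27). PRDX2, a widely expressed peroxidase, was listed at 0 in all 4 libraries labelled PC9 and at 78.4 FPKM or more elsewhere. In all 23 of the 112 off genes were at 0 in every library labelled PC9 and 89 were above 0 in at least 1. An exact 0 can be a failed estimate, so those genes are only listed at 0. Lengths were within 0.1 on the log2 scale of those in HCC827 for 36 of the 74 on genes and 41 of the 112 off genes.

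Some off genes lay beside each other. Among neighbouring tested genes 9 pairs were both off: GBP1 and GBP3, IFIT2 and IFIT3, SYT12 and RHOD, PRSS21 and PRSS22, KRT15 and KRT19, PSMB8 and PSMB9, CLDN3 and CLDN4, LY96 and JPH1, and CDKN2A and CDKN2B. On genes formed 2 pairs, SLC6A15 with ALX1, and CD99 with GYG2. All 186 are protein-coding in GENCODE 29. Chromosome 1 held 17 off genes, 11 held 13 and 19 held 12, while chromosomes 2 and 12 held 8 on genes each. These counts were not set against the number of tested genes per chromosome and may only follow it. The pairs have no background count either.

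Promoters of the off genes were poorer in CpG. The ratio of observed to expected CpG in the 250 bases had a median of 0.597 in 68 matched off genes, 0.764 in 51 on genes and 0.825 in tested genes. It reached 0.6 in 48.5%, 64.7% and 81.0% of them. The E-box CAGGTG, which ZEB and SNAIL repressors bind, was found before 23 of the 68 off genes (33.8%), 7 of the 51 on genes (13.7%), 6 of 16 junction genes (37.5%) and 15.9% of tested genes. The windows of CLDN4, CLDN7 and SPINT1 held none. These shares are descriptions and were not tested.

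Markers of other cell types were low. In bulk RNA fewer cells of a type and less RNA per cell cannot be told apart. Only 4 of 20 immune markers were tested, and 3 were called lower. Their summed level was 4.23 and 3.73 FPKM in the libraries labelled PC9, 45.4 and 44.6 for HCC827 and 99.7 and 99.5 in H1975. CD68, also made by tumour cells, gave most of it, at 83.1 and 80.9 in H1975. Fibroblast markers summed to 6.91 and 6.87, 20.8 and 22.3, and 30.9 and 34.3 FPKM. Endothelial markers summed to at most 1.75. None of the 8 erythroid markers had a value in all 6 control columns, so their level is not known. The part of such cells in the differences was not tested.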

How the data were processed

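Per the labels' protocols, TRIZOL served for extraction and a SMARTER mRNA-seq kit for library preparation. The authors deposited 1 table of FPKM values, with 1 column per library, and the genome build was GRCh38.p13 per the submitters' processing notes. The sources used here do not name an aligner, a counting tool, an annotation or a strand setting, so antisense and overlapping genes cannot be told apart. Of 20030 entries, 27 with names turned into dates were left out.

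Values were analysed as log2(FPKM + 1). Genes filled in all 6 control columns with at least 1 FPKM in 2 or more were fitted with limma 3.58.1 in R 4.3.3, with 1 mean per line and a trended variance, in contrasts of PC9 with each line and with the mean of both. Benjamini-Hochberg adjustment ran over all 11895 genes. The tests set separately made columns side by side. Whole reads were recovered for 99.57% (PC9), 99.62% (HCC827) and 99.19% (H1975) of genes above 0, up to a common factor per gene, so no count test was run. Positions are from GENCODE 29, promoters from RefSeq (GRCh38.p14).

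The members and the gene lists were chosen with earlier results of these data known. Named were the 12 widest gaps among on genes and among off genes, on or off genes of a list, and up to 4 called members per list, plus 35 added after their values were seen and single genes of a group that a count refers to. A few genes are not reported here. The alternatives tried were other pseudocounts, filters, scalings, thresholds, gene sets, a fit to all 12 libraries, a replicate block and leaving out each library.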

Additional observations from a re-analysis of the deposited data

Results flagged for a closer look

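Of 4097 entries without a value in all 6 control columns, 2625 had no value in HCC827 or in H1975, and 193 of these were at 5 FPKM or more in both control libraries labelled PC9. They drew attention as signal in rows the comparison could not use. Of the 193, 8 carried a current RefSeq symbol and 185 did not, whereas 98.6% of tested genes did. They were left out of every count of on genes.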

How the results depend on the processing

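Counts of called genes kept within 1.5 times of the reported ones under another pseudocount, filters, scalings and a fit to all 12 libraries. Exceptions follow by construction. With genes of equal length only, 1620 were higher, 1797 lower and 4693 called between HCC827 and H1975 of 5976 tested. A required difference of 2 gave 267 and 345. On and off genes were 20 and 38 at 10 and 0.1 FPKM, 249 and 370 at 2 and 1 FPKM, and 30 and 39 with equal lengths. Leaving out each library gave 2392 to 3230 higher, 3568 to 3830 lower, 75 to 78 on and 114 to 121 off, with the lone library assumed to vary like the others. Median-of-ratios scaling raised the share of higher calls from 44.3% to 49.0%, and quantile normalization to 53.6%. Quantile normalization ended the calls of EGFR (-1.62) and CD79A (-1.52), and GCLC, AKR1B1 and SOX9 (0.24) gained one. AKR1B1 also gained it under median-of-ratios scaling (1.89) and without either HCC827 library (1.88 and 1.70). ISG20, at 0.0602 and not called, was the only named gene recomputed to change sign, between -0.0448 and 0.165 with 1 library left out. Replicate numbers did not pair the libraries, since deviations correlated at 0.0373, -0.0228 and 0.0869 between lines. With a replicate block 3133 genes were higher and 3947 lower. Requiring a value above 0 on the off side, chosen after seeing the data, left 73 on and 89 off. Low genes are limited by depth, and a level under 0.5 FPKM is few reads.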

Other observations

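Among all tested genes 26.1% were called higher and 32.8% lower. Chemokines and cytokines were lower in 10 of 21 tested genes (47.6%) and higher in 3 (14.3%). CXCL5, a neutrophil attractant, was at 52.3 and 55.8 FPKM in the control libraries labelled PC9, 0.841 and 1.05 for HCC827 and 1.82 and 1.79 in H1975. CCL2, which attracts monocytes, was at 12.9 and 11.5 FPKM against at most 4.36. IL6 was at 0 in both, against 1.14 and 0.753 in HCC827 and 3.66 and 2.92 in H1975. CX3CL1, a membrane-bound chemokine, was at 0.397 and 0.189 FPKM, 44.8 and 41.3, and 2.52 and 3.15.

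In the TGF-beta and BMP pathway 11 of 24 tested genes were called higher (45.8%) and 5 lower (20.8%). TGFB1 was at 92.0 and 92.5 FPKM, 13.2 and 13.4 in HCC827 and 12.6 and 14 in H1975. BMP2 was at 2.8 and 3.02 FPKM against at least 13.7, and NOG, an inhibitor of BMPs, at 0.0537 and 0.051 against at least 3.87. Of 39 HOX genes, which set position along the body axis, 35 had values in all 6 control columns and 20 were tested. Of these 20, 12 were called higher (60.0%) and none lower. HOXB6 was at 7.42 and 7.21 FPKM against at most 0.679. It passed the filter only through the libraries labelled PC9, so its direction was fixed by the filter. The count therefore does not describe the whole list. Among 8 tested cancer-testis antigens PRAME was higher, at 49.4 and 49.9 FPKM against at most 6.41, and CT83 was at 0 in both against at least 14.6. Imprinted growth genes split into 3 higher and 3 lower of 10 tested.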
